A study of Sus scrofa with 150 samples.

Results

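Livers of the fattest pigs of a commercial herd were set against livers of the leanest. Of 150 pigs with 1 liver array each, 30 had a fat area of 18.2 cm2 or more and are called the fattest, 32 had 12.5 cm2 or less and are called the leanest, and the other 88 lie between and are called the middle livers. Fat area is the cross-section of the fat over the long back muscle, as the labels give it, and each pig was placed by this label alone. The groups and the gene lists below were, however, chosen with earlier results of these data known. All pigs were untreated crossbreds of the type labelled Pix(DLxDE), and their livers were taken at slaughter. The labels give no age, sex, litter, feeding or slaughter day, so the groups differ by the measured trait and by whatever goes with it in such a herd. The fattest averaged 20.2 cm2 (SD 1.94, range 18.2 to 26.7, n = 30) and the leanest 11.4 cm2 (SD 1.04, range 8.1 to 12.5, n = 32). The limits cut a continuous trait: 2 pigs lay exactly on the upper limit and 4 on the lower, and the nearest middle pigs had 18.1 and 12.6 cm2.

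As background, the liver turns the nitrogen of surplus amino acids into urea, makes most plasma proteins on membrane-bound ribosomes and exports them through the endoplasmic reticulum and the Golgi, and handles the fatty acids that reach it from fat tissue. These tasks are divided along the liver lobule, with urea synthesis strongest around the portal vein and bile acid synthesis around the central vein. In pigs most fatty acid synthesis takes place in fat tissue rather than in the liver.

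Apart from fat area, the measured traits and the array quality of both groups differed by less than their spread. Drip loss, the water that a piece of the back muscle loses on hanging and the other trait in the labels, averaged 5.61% (SD 2.23) in the fattest and 5.92% (SD 2.22) in the leanest. Array medians averaged 5.94 on the log2 scale in both, 2.76% and 2.77% of the values lay at the lowest value of the table, and the median correlation with the other arrays was 0.969 in both. With the title number and the 3 prime minus 5 prime differences of the GAPDH and actin controls, which reflect RNA integrity, these 7 measures had permutation p-values of 0.418 to 0.976 (two-sided, 100000 resamples, adjusted p 0.976 for each). Of 13 arrays that correlated poorly with the rest, 1 was of the fattest, 2 of the leanest and 10 of the middle livers.

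The groups did differ in EIF1AY, a translation initiation factor gene on the Y chromosome. Its log2 level averaged 6.06 (SD 0.90, n = 30) in the fattest and 4.63 (SD 0.87, n = 32) in the leanest (permutation p = 2e-05, the smallest the resamples can give; adjusted p = 0.00016 over 8 measures). No liver of the 150 lay between 4.72 and 5.64. Above this gap lay 26 of the 30 fattest livers, 7 of the 32 leanest and 44 of the 88 middle livers. The 77 pigs above it averaged 16.6 cm2 (SD 3.06) of fat area and the 73 below it 13.8 cm2 (SD 2.84). Fat area and the side of the gap therefore go together in these groups. The called genes are given plain, with the EIF1AY level as a covariate and within each side of the gap, and the pathway lists described plain and given EIF1AY, with the sides where they turn the direction. Other genes are given plain, and also given EIF1AY where that moved the difference by over 1.5 times, which it did for 7 of the 69 named besides EIF1AY. The covariate is the level itself, and above the gap this level also went with the array median. The lowest liver there, at 5.64, had an array median of 5.85, and the highest, at 7.53, one of 6.01. A change given EIF1AY can therefore hold array brightness as well, and the part of each was not tested.

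**Figure D1:**
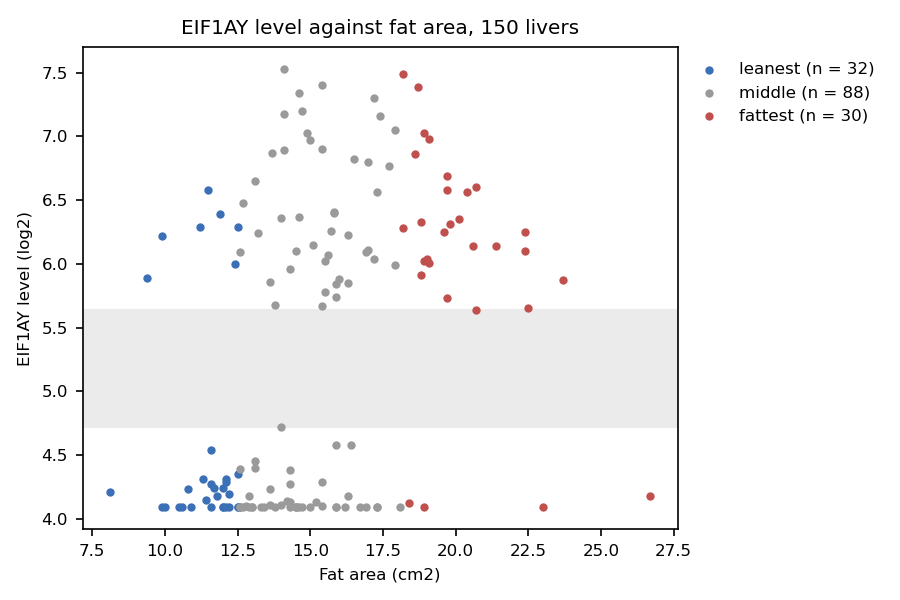
Log2 level of EIF1AY (vertical axis) against fat area in cm2 (horizontal axis) for each of the 150 livers, coloured by group, with the empty range from 4.72 to 5.64 shaded. Of the fattest livers 26 of 30 lie above the shaded range, and of the leanest 7 of 32.

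Of 23999 probe sets, each a group of short probes to 1 transcript, 20 passed an adjusted p under 0.05 between fattest and leanest (limma), 12 higher (0.05% of those tested) and 8 lower (0.0333%) in the fattest. Those with the largest differences followed the EIF1AY level. The probe set with the largest rise, which has no gene name, ran from 4.09 over a median of 9.065 to 9.41 on the log2 scale in the fattest and from 4.09 over 4.56 to 9.33 in the leanest, a difference of 3.05 (SE 0.54, adjusted p = 0.000894). The ranges covered each other almost fully, because livers of both groups lay at both ends. The probe set with the largest fall, also without a name, had the opposite pattern, with medians of 4.50 and 8.455 and a difference of -2.75 (SE 0.54, adjusted p = 0.00461). Within the livers above the gap these differences were 0.086 and -0.066, and below it -0.027 and 0.41.

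In a model of EIF1AY level and fat group together, 12 of the 20 also passed for EIF1AY itself and 8 did not. The 12 include the EIF1AY probe set, whose pass against its own level was fixed in advance. Of the 20, 5 carried a gene symbol, EIF1AY and the 4 genes GPT, ASL, ABHD14B and ALDH18A1, and these 4 were among the 8 that did not pass for EIF1AY. Not passing the adjusted test does not mean that a gene was unrelated to EIF1AY. An unadjusted p of 0.05 or more for EIF1AY (limma) was found for 4 of the 20, among them GPT, ABHD14B and ALDH18A1. ASL had a slope of 0.066 per log2 unit of EIF1AY (SE 0.027, limma, unadjusted p = 0.0166). With the EIF1AY level as a covariate, 1 probe set passed (limma, 0.00417% higher, and 0 lower, 0.0%), while 1645 had an unadjusted p under 0.05. It again had no gene name, and it ran from 4.56 over a median of 5.765 to 6.74 in the fattest and from 4.57 over 5.12 to 6.73 in the leanest. In 29 of the 30 fattest livers it lay above the median of the leanest. The plain difference was 0.57 (SE 0.11, adjusted p = 0.00562) and the difference given EIF1AY was 0.62 (SE 0.12, adjusted p = 0.0376). It was larger below the gap (1.06) than above it (0.20), and the slope on fat area among the middle livers was 0.018 per cm2 (SE 0.032). It passed in 8 of 16 other settings.

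The 6765 named genes were each read from their probe set of smallest p. Among them 4 passed as higher (0.0591%) and 1 as lower (0.0148%), while 274 (4.05%) were higher and 384 (5.68%) lower at an unadjusted p under 0.05. The counts in gene lists below are read against these shares. Reading each gene from its brightest probe set instead gave 313 lower.

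Besides EIF1AY, 3 named genes rose in the fattest livers and 1 fell. GPT encodes alanine aminotransferase, which moves the amino group of alanine onto 2-oxoglutarate. Its log2 level ran from 5.38 over a median of 6.36 to 6.84 in the fattest and from 4.83 over 5.905 to 6.59 in the leanest, and 25 of the 30 fattest lay above the median of the leanest. It rose by 0.41 (SE 0.095, 1.33-fold, adjusted p = 0.0384), and the difference was 0.45 above and 0.42 below the EIF1AY gap.

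ASL, the argininosuccinate lyase of the urea cycle, ran from 10.09 over 10.52 to 11.70 in the fattest and from 9.34 over 10.195 to 10.96 in the leanest. The groups overlapped over most of their range, with 26 of 30 fattest livers above the median of the leanest. The rise was 0.39 (SE 0.092, 1.31-fold, adjusted p = 0.0446), and it was 0.30 (adjusted p = 0.484) given EIF1AY, 0.21 above the gap and 0.27 below it.

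ABHD14B, a protein of the alpha/beta hydrolase fold, ran from 9.33 over 9.99 to 10.56 in the fattest and from 9.10 over 9.635 to 10.12 in the leanest. Only 2 of the 30 fattest livers lay below the median of the leanest. It rose by 0.33 (SE 0.073, 1.26-fold, adjusted p = 0.0203), and its other probe set differed by 0.34. The difference was 0.34 above the gap and 0.27 below it.

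ALDH18A1, which makes the precursor of proline and ornithine from glutamate, was the named gene that fell. It ran from 6.07 over 6.78 to 7.38 in the fattest and from 6.49 over 7.17 to 8.57 in the leanest. The fall was to 0.724 of the leanest level (log2 difference -0.47, SE 0.10, adjusted p = 0.0171), with 28 of 30 fattest livers below the median of the leanest. It was -0.39 above the gap and -0.58 below it.

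Given the EIF1AY level the differences of GPT, ABHD14B and ALDH18A1 were 0.42, 0.33 and -0.44, close to the plain ones, but no named gene passed the adjusted test there (limma, smallest adjusted p = 0.312). At an unadjusted p under 0.05, 274 genes were higher (4.05%) and 441 lower (6.52%) given EIF1AY. Scaling moved that split: over probe sets it was 663 higher and 982 lower in the table as deposited and 896 higher and 730 lower after quantile normalization. GPT was called in 11 of 19 other settings, ASL in 10, ABHD14B in 16 and ALDH18A1 in 15, and each kept its direction in all of them.

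**Figure D2:**
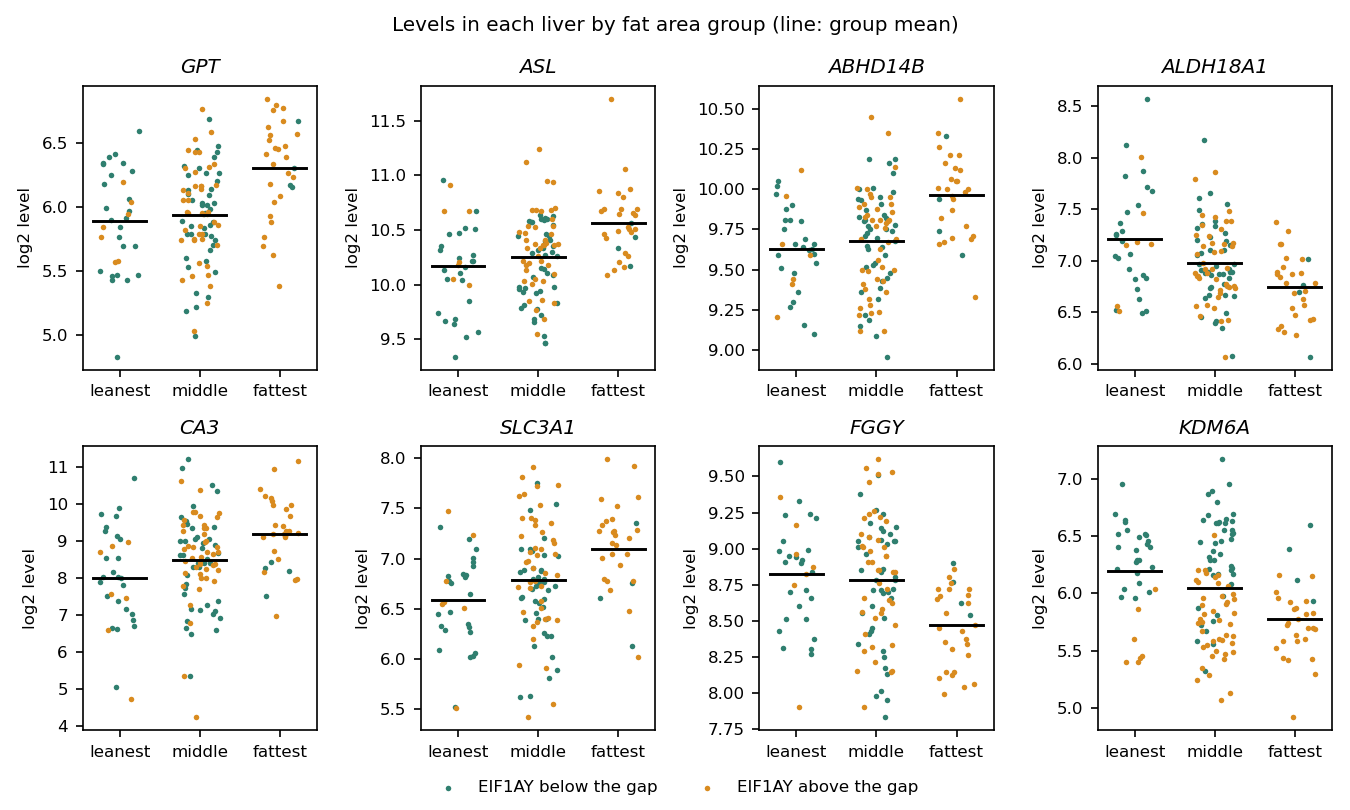
Log2 level of 8 genes in each liver (vertical axes) for the leanest, middle and fattest livers, coloured by the side of the EIF1AY gap, with a line at each group mean. The groups overlap for every gene, and KDM6A is lower above the gap than below it within both the leanest and the fattest livers.

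The next genes by p did not pass, with adjusted p-values from 0.0533 to 0.153 for 15 of them. On the higher side was CA3, a carbonic anhydrase of liver and muscle with the largest difference among them. It ran from 6.96 over 9.20 to 11.16 in the fattest and from 4.72 over 8.015 to 10.70 in the leanest, a log2 difference of 1.19 (SE 0.30, adjusted p = 0.0782), and its other probe set gave the same value. The excess lay on one side of the EIF1AY gap. Above it the difference was 1.79 (SE 0.46) and below it, where there are 4 fattest livers, -0.014 (SE 0.65); the difference between the sides was not tested. The other 14 skeletal muscle markers had a summed level of 4.98 to 5.37 in the fattest and 4.87 to 5.37 in the leanest, given as the mean log2 value per liver. None of the 14 had an unadjusted p under 0.05, and MYH2, a fast muscle myosin, was at the lowest value of the table in 81 of the 150 livers.

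SLC3A1, the heavy chain of a transporter of cystine and basic amino acids, had medians of 7.175 and 6.61 and differed by 0.51 (SE 0.13, adjusted p = 0.0782). Its second probe set differed by 0.11 (SE 0.099). BCKDHB, a subunit of the complex that degrades branched-chain keto acids, differed by 0.28 (SE 0.068), and PRDX6, a peroxiredoxin, by 0.27 (SE 0.068). CST3, the secreted protease inhibitor cystatin C, differed by 0.24 (SE 0.057, adjusted p = 0.0533), and all 3 of its probe sets lay between 0.20 and 0.25. APCDD1, an inhibitor of Wnt signalling, differed by 0.40 (SE 0.097), and its other probe set by 0.30.

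On the lower side FGGY, a carbohydrate kinase, ran from 7.99 over 8.505 to 8.90 in the fattest and from 7.90 over 8.885 to 9.60 in the leanest. Its difference was -0.35 (SE 0.097, adjusted p = 0.153), and 29 of the 30 fattest livers lay below the median of the leanest. DCTD, which deaminates dCMP to dUMP for thymidylate synthesis, differed by -0.32 (SE 0.079, adjusted p = 0.0772). PLEK2, a pleckstrin of the actin cytoskeleton, differed by -0.39 (SE 0.11) and PHOSPHO2, a phosphatase, by -0.21 (SE 0.057). IER5, an immediate early gene, and ASNS, asparagine synthetase, differed by -0.37 and -0.45. The other IER5 probe sets differed by -0.11 and -0.13. The ASNS difference was -0.61 below the gap and 0.088 above it. For B2M, which pairs with MHC class I heavy chains, 1 of 9 probe sets differed by -0.37, and the other 8 lay between -0.058 and 0.10. LOC100157433, a locus without a gene name, differed by -0.24 (SE 0.062), and its other probe set by -0.081.

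KDM6A, a histone demethylase on the X chromosome, went with the EIF1AY level. Its medians were 5.76 in the fattest and 6.28 in the leanest, a difference of -0.42 (SE 0.11, adjusted p = 0.0862). Given EIF1AY it was -0.13 (SE 0.10), and within the sides of the gap it was 0.10 and -0.10. Its level followed EIF1AY within the fat groups, with a slope of -0.20 per log2 unit (unadjusted p = 2.13e-11).

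**Figure D3:**
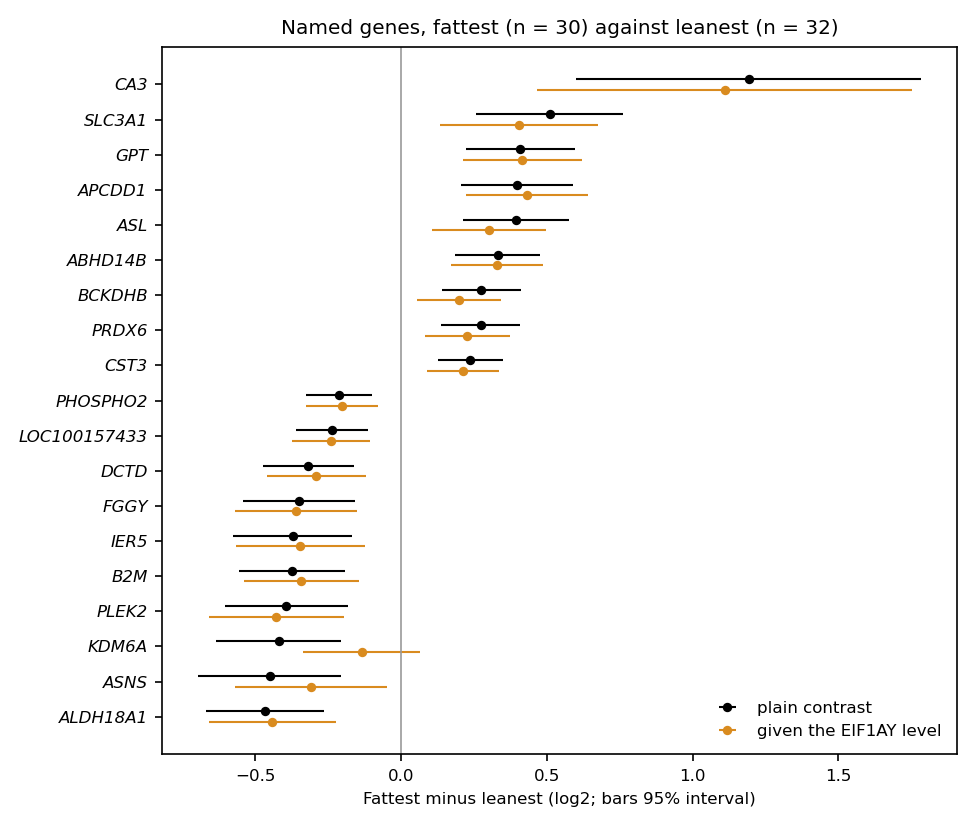
Difference between fattest and leanest on the log2 scale with its 95% interval for the 19 named genes besides EIF1AY, plain (black) and given the EIF1AY level (orange). All 19 keep their sign given EIF1AY, and the interval of KDM6A then crosses 0.

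Of the 19 named genes besides EIF1AY, all kept their sign given EIF1AY and 18 had an unadjusted p under 0.05 there. The sign was the same in 17 above the gap, in 18 below it and in 16 on both sides. These 19 were chosen by their plain p in the same livers, which favours like signs and small p-values. The counts are therefore no separate test of these genes. The rest of the fit with EIF1AY was led by other genes. Its 5 smallest p-values for lower genes included ANXA5, annexin A5, a protein that binds phosphatidylserine, at -0.53 given EIF1AY and -0.44 plain. They also held REXO2, a mitochondrial oligoribonuclease (-0.29 and -0.22), EAF1, a factor of transcription elongation (-0.57 and -0.48), and B4GALT5, a galactosyltransferase of glycolipid synthesis (-0.52 and -0.41). Among the higher genes were FN3K, which removes sugar adducts from proteins (0.39 and 0.35), and PLLP, the membrane protein plasmolipin (0.33 and 0.26). ANXA5 was -0.73 above and -0.70 below the gap. It was chosen by its p in this fit of the same livers, which favours like values on both sides. The sides are not given for the other genes of this fit.

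In a model of drip loss with the fat groups, 0 probe sets passed for drip loss (limma), while 2848 (11.9%) had an unadjusted p under 0.05. Of the 19 genes, 2 (10.5%, near the share of all probe sets) had an unadjusted p under 0.05 for drip loss, CST3 (-0.026 per percent, p = 0.003) and BCKDHB (0.020 per percent, p = 0.0499).

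The 88 middle livers, which entered neither group, gave a look at the same measure in other pigs, but not apart from EIF1AY. There EIF1AY itself rose by 0.22 per cm2 of fat area (SE 0.080, limma, unadjusted p = 0.0065). The middle slopes of genes and lists in the text are plain, without EIF1AY as a covariate. The slope on fat area among the middle livers passed for 0 probe sets in either direction (limma, 0.0% and 0.0%). At an unadjusted p under 0.05, 535 were positive (2.23%) and 287 negative (1.2%). After quantile normalization 461 of 807 were negative. Over all 6765 genes 3758 slopes were positive and 3007 negative, and after quantile normalization 3034 and 3731. Among the 19 genes above, 7 of the 9 higher ones had a positive slope and 8 of the 10 lower ones a negative slope. Of the 19, 3 had an unadjusted p under 0.05. These were BCKDHB at 0.038 per cm2 (SE 0.017, p = 0.0271), ASNS at -0.077 (SE 0.031, p = 0.0152) and IER5 at -0.087 (SE 0.028, p = 0.0028). Their adjusted p-values were all 0.9998.

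The 4 called genes had slopes near 0 or with intervals across 0 in the middle livers. ABHD14B, whose difference between the groups amounts to 0.038 per cm2, had a middle slope of -0.0074 (95% interval -0.050 to 0.035). For GPT the values were 0.046 and 0.0065 (-0.045 to 0.058), for ASL 0.045 and -0.0051 (-0.056 to 0.046), and for ALDH18A1 -0.053 and -0.039 (-0.091 to 0.014). The middle slope's interval left out the value of the groups for 3 of the 19 genes, ABHD14B, FGGY and PHOSPHO2. For the other 16 it held that value. Except for BCKDHB, ASNS and IER5, the intervals of the 19 genes also held 0.

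**Figure D4:**
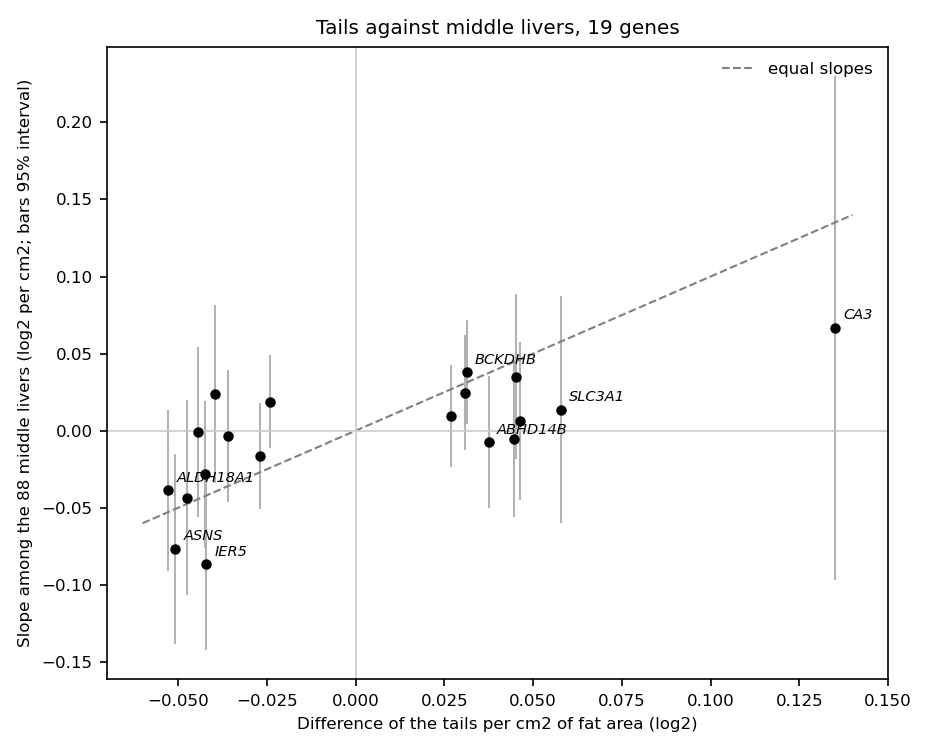
Slope of the log2 level per cm2 of fat area among the 88 middle livers, with its 95% interval (vertical axis), against the difference between fattest and leanest divided by their difference in mean fat area (horizontal axis), for 19 genes. ASNS, IER5 and BCKDHB lie on the same side of 0 in both with intervals that leave out 0, and ABHD14B lies near 0 in the middle livers.

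Beyond single genes, 62 gene lists were described by counts and medians, 50 of pathways and 12 of cell type markers. In 61 of the 62 no member passed the adjusted test. Over all 6765 genes the median difference was -0.014, with 3759 genes below 0 and 3005 above.

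Genes of metabolic zonation had plain medians above that background at both ends of the lobule, and smaller ones given EIF1AY. Of 13 measured genes of the periportal list 9 were higher, with a median of 0.11, and 5 had an unadjusted p under 0.05 as higher and 1 as lower. Given EIF1AY 9 were again higher, but the median was 0.035, and 3 had an unadjusted p under 0.05, all as higher. ASL was the member that passed the adjusted test in the plain comparison. SDS, serine dehydratase, which turns serine into pyruvate, ran from 5.80 over 8.93 to 11.82 in the fattest and from 4.41 over 7.175 to 10.89 in the leanest. Its difference of 1.24 (SE 0.38, adjusted p = 0.237) did not pass, and the groups overlapped widely. ASS1, the urea cycle step before ASL, differed by 0.19 (SE 0.064), whereas CPS1, the first step of the cycle, differed by 0.12 (SE 0.078) and by -0.00010 given EIF1AY, with 0.30 above the gap and -0.035 below it. Among the middle livers 5 of the 13 had a positive slope.

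The pericentral list had 9 of 12 genes higher, with a median of 0.092 and 3 at an unadjusted p under 0.05. Given EIF1AY the median was 0.066, with 2 at an unadjusted p under 0.05. Read plain from the brightest probe set of each gene, the pericentral median was 0.041, whereas the periportal one stayed at 0.11. The plain 3 included CA3 and CYP7A1, which starts bile acid synthesis from cholesterol, whose medians were 9.095 and 8.34. CYP7A1 differed by 0.95 (SE 0.38, adjusted p = 0.597), with a middle slope of 0.19 per cm2 (SE 0.096), and 9 of the 12 slopes were positive there.

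In folate and one-carbon metabolism, 12 of 19 genes were higher, with a median of 0.071 (0.030 given EIF1AY, and 0.034 plain from the brightest probe sets). At an unadjusted p under 0.05, 6 were higher and 1 lower. FOLR2, a folate receptor found on macrophages, had medians of 12.405 and 12.175 and differed by 0.24 (SE 0.064, adjusted p = 0.105). GNMT, which uses up S-adenosylmethionine by methylating glycine, had medians of 11.63 and 11.13 and differed by 0.44 (SE 0.12, adjusted p = 0.105), or 0.27 given EIF1AY. MAT1A, which makes S-adenosylmethionine, differed by 0.19 (SE 0.069), and CTH, of cysteine synthesis, by 0.32 plain and 0.076 given EIF1AY. The lower gene was MTHFD1L, of mitochondrial formate production, at -0.23 (SE 0.068).

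Single enzymes of other pathways had differences of like size. ALAD, of heme synthesis, had medians of 11.47 and 11.26 and differed by 0.25 (SE 0.067, adjusted p = 0.122), in a list with 8 of 12 genes higher and a median of 0.048 (0.039 given EIF1AY, and -0.0037 above the gap). SAT2, of the spermidine/spermine acetyltransferase family, had medians of 7.31 and 6.91 and differed by 0.42 (SE 0.11, adjusted p = 0.0811), while SRM, spermidine synthase, differed by -0.29 (SE 0.10), though by 0.00077 above the gap. CHDH, which oxidises choline to betaine, differed by 0.31 (SE 0.10), and its other 2 probe sets by 0.24 and 0.26.

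Genes of protein synthesis and secretion were lower in the fattest livers in count, by small amounts. Of 48 measured genes of protein translocation and vesicle transport 40 were lower, with a median of -0.093, and 12 (25% of the list, beside 5.68% of all genes) had an unadjusted p under 0.05 as lower and 1 as higher. None passed the adjusted test. KDELR3, a receptor that returns chaperones from the Golgi to the endoplasmic reticulum, ran from 6.93 over 7.675 to 8.57 in the fattest and from 7.27 over 8.01 to 8.94 in the leanest. It differed by -0.37 (SE 0.10, adjusted p = 0.179), and its other probe sets by -0.25 and -0.055. SSR3, of the translocon, had medians of 10.555 and 10.79 and differed by -0.18 (SE 0.059, adjusted p = 0.304). SEC23B, of the COPII coat, differed by -0.29 (SE 0.10) and BET1, a Golgi SNARE, by -0.31 (SE 0.10).

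The direction of this list was alike across the ways of looking, but all of these except the middle livers read the same fattest and leanest livers again. Given EIF1AY 41 of 48 were lower, with a median of -0.14 and 15 at an unadjusted p under 0.05. Above the gap 39 of 48 were lower, below it 37, and after quantile normalization 40. Among the middle livers 34 of 48 had a negative slope, beside 3007 of all 6765 genes. The median slope was -0.0061 per cm2 in the list and 0.0022 over all genes. Endoplasmic reticulum chaperones are not in this list.

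The list of the hexosamine pathway and N-glycosylation had 31 of 37 genes lower, with a median of -0.067 (-0.090 given EIF1AY) and 5 at an unadjusted p under 0.05. ST6GAL1, which adds sialic acid to secreted glycoproteins, had medians of 12.13 and 12.23 and differed by -0.20 (SE 0.057, adjusted p = 0.168), as did its second probe set, though it was 0.029 below the gap. B4GALT1, a galactosyltransferase of the Golgi, differed by -0.25 (SE 0.085). Here the middle livers went the other way in count, with 12 of 37 slopes negative.

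Translation and the making of ribosomes had the same direction in count. Of 24 aminoacyl-tRNA synthetases, which charge tRNAs with amino acids, 22 were lower, with a median of -0.095 (-0.13 given EIF1AY) and 5 at an unadjusted p under 0.05. Below the gap 18 of 24 were lower, but above it 11 of 24, with a median of 0.0056. Among the middle livers 10 of 24 synthetase slopes were negative. WARS, for tryptophan, had medians of 5.935 and 6.15 and differed by -0.24 (SE 0.070, adjusted p = 0.201), and LARS, for leucine, by -0.21 (SE 0.089). The other WARS probe sets differed by -0.15 and -0.039. Several synthetases are targets of the amino acid response, to which ASNS also belongs.

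Of 36 initiation and elongation factors 29 were lower, with a median of -0.068 (-0.076 given EIF1AY). EIF2B1 and EIF2B3, subunits of the exchange factor of initiation factor eIF2, differed by -0.13 (SE 0.047) and -0.16 (SE 0.062), and the second EIF2B1 probe set by -0.050. In ribosome biogenesis 46 of 54 were lower, with a median of -0.065 (-0.084 given EIF1AY) and 7 at an unadjusted p under 0.05. DKC1 and GAR1, which belong to the same complex that modifies ribosomal RNA, differed by -0.26 (SE 0.081) and -0.25 (SE 0.085), and the second DKC1 probe set by -0.21. In mRNA splicing 46 of 60 were lower, with a median of -0.044 plain and -0.10 given EIF1AY. TRA2B and SRSF6, splicing factors of the SR family and its relatives, differed by -0.25 (SE 0.093) and -0.29 (SE 0.12), but most of their other probe sets lay nearer to 0. In the middle livers 17 of 36, 23 of 54 and 29 of 60 slopes were negative in these lists, which is near the share of all genes.

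**Figure D5:**
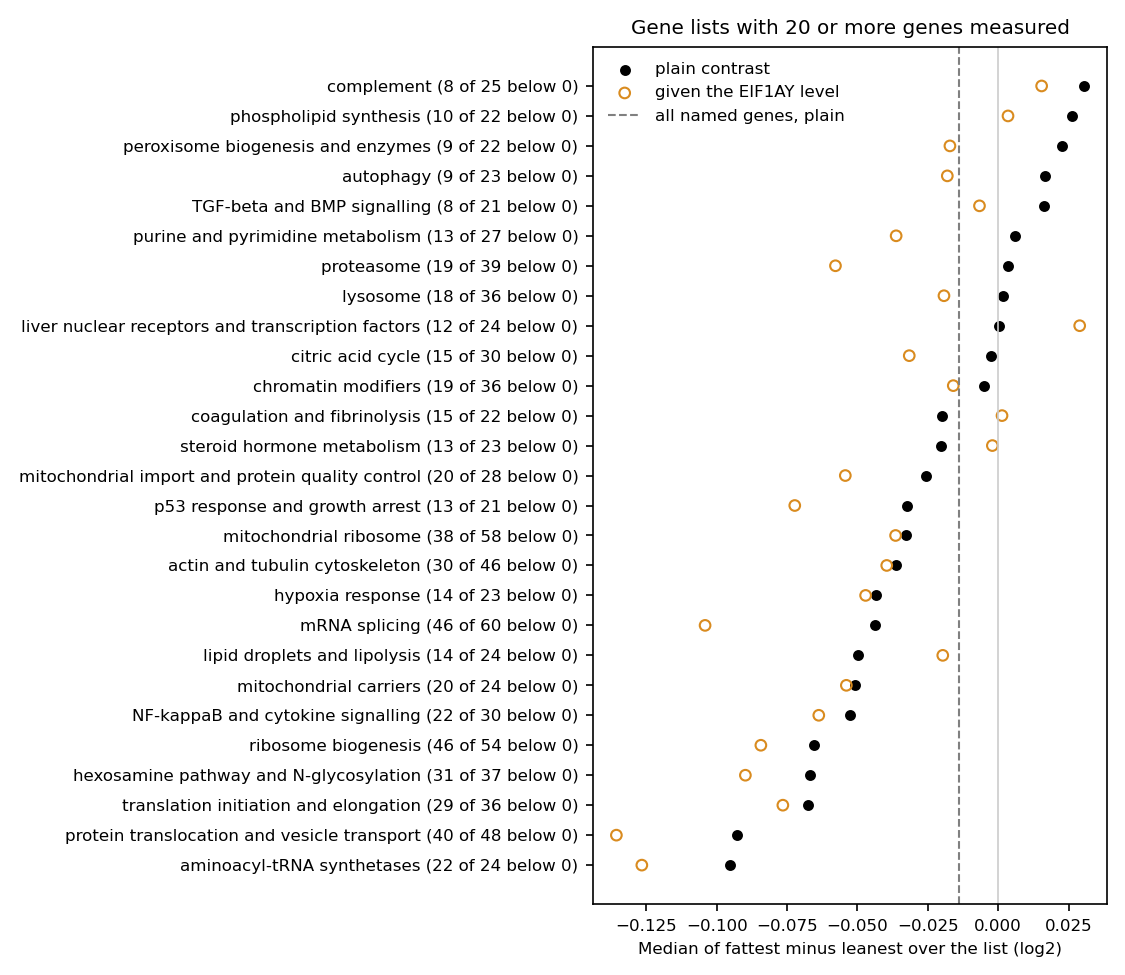
Median difference between fattest and leanest on the log2 scale (horizontal axis) for each list with 20 or more measured genes, plain (filled) and given the EIF1AY level (open), beside the median of all 6765 genes (dashed line, -0.014). Aminoacyl-tRNA synthetases and protein translocation lie lowest, at -0.095 and -0.093, and all list medians stay within about 0.1 of 0 in the plain comparison.

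Transcripts of mitochondrial proteins were lower in count in some groups and not in others. Of 24 carriers of the inner membrane 20 were lower, with a median of -0.051 (-0.054 given EIF1AY), but in the middle livers 9 of 24 slopes were negative. SLC25A30, a carrier of sulfur compounds, ran from 5.47 over 6.685 to 9.08 in the fattest and from 5.79 over 7.735 to 9.18 in the leanest. It differed by -0.77 (SE 0.22, adjusted p = 0.179), with -1.01 above the gap and 0.11 below it. SLC25A5, the ADP/ATP carrier, differed by -0.25 (SE 0.074), and SLC25A33, a pyrimidine nucleotide carrier, by -0.45 (SE 0.17) in 1 of its 2 probe sets. The mitochondrial ribosome had 38 of 58 genes lower, with a median of -0.033 (-0.036 given EIF1AY), but below the gap 26 were lower and 32 higher, with a median of 0.0055. At an unadjusted p under 0.05, 3 of the 58 were lower (5.17%, beside 5.68% of all genes). MRPS26 lay on the higher side at 0.21 (SE 0.061). In the citric acid cycle 15 of 30 were lower, with a median of -0.0025 (-0.032 given EIF1AY), and the medians were 0.044 on each side of the gap.

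Lipid droplet genes showed 1 large value in a list without a common direction. PLIN2, the coat protein of lipid droplets in the liver, ran from 6.02 over 6.915 to 10.85 in the fattest and from 6.34 over 8.025 to 10.09 in the leanest, so 27 of 30 fattest livers lay below the median of the leanest. Its difference of -0.84 (SE 0.26, adjusted p = 0.247) did not pass. It was -1.44 above the gap and -0.46 below it, with a middle slope of -0.13 per cm2 (SE 0.069). HILPDA, an inhibitor of lipolysis at the droplet, differed by -0.28 (SE 0.095) and ACSL5, an acyl-CoA synthetase, by -0.20 (SE 0.085). The other HILPDA probe set differed by -0.082, and the other ACSL5 probe sets by -0.11 and -0.12. FABP1, the liver fatty acid binding protein, differed by 0.28 (SE 0.11), though by -0.073 below the gap. Over the list 14 of 24 were lower, with a median of -0.050 (-0.020 given EIF1AY, and 0.0084 above the gap) and 6 members at an unadjusted p under 0.05, 4 lower and 2 higher.

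Cytokine and hormone lists had small medians. In NF-kappaB and cytokine signalling 22 of 30 genes were lower, with a median of -0.052 (-0.064 given EIF1AY), and 24 of 30 had a negative slope in the middle livers. LBP, which binds bacterial lipopolysaccharide in plasma, differed by -0.32 (SE 0.10, adjusted p = 0.338) and by -0.50 (SE 0.22) in its second probe set. NFKBIA, the inhibitor of NF-kappaB, differed by -0.20 (SE 0.076). CDKN1A, an inhibitor of the cell cycle, had medians of 8.54 and 8.905 and differed by -0.48 (SE 0.14, adjusted p = 0.202), or -0.32 given EIF1AY, with a middle slope of -0.082 per cm2 (SE 0.037).

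SERPINA6, the corticosteroid-binding globulin of plasma, differed by 0.41 (SE 0.18) plain and 0.55 given EIF1AY, where its adjusted p did not pass. SERPINA7, the thyroxine-binding globulin, and DIO1, a deiodinase that activates thyroid hormone, differed by -0.22 (SE 0.083) and -0.31 (SE 0.14), and by -0.10 and -0.12 given EIF1AY. DIO1 was 0.082 below the gap. INSR, the insulin receptor, differed by -0.11 (SE 0.048), though by 0.063 in its brightest probe set, and 7 of 11 genes of insulin signalling were lower, with a median of -0.037. Given EIF1AY 5 of the 11 were lower, with a median of 0.0037. Proteasome subunits had 19 of 39 genes lower, with a median of 0.0033, and 33 of 39 given EIF1AY, with a median of -0.058. Their medians were -0.078 above the gap and -0.038 below it.

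Markers of the cell types a liver sample can hold had small medians in the plain comparison and larger ones in some lists when EIF1AY was taken into account. The plain medians of the 12 marker lists lay between -0.046 and 0.064, and over all of them 6 entries were higher and 1 lower at an unadjusted p under 0.05. Higher were 2 of 17 hepatocyte, 2 of 12 stellate cell, 1 of 7 bile duct and 1 of 15 skeletal muscle markers. Lower was 1 of 11 liver endothelial markers, and the other lists had none. Among all named genes 4.05% were higher and 5.68% lower, and no direction is read from so few entries. None of their members passed the adjusted test. Given EIF1AY the medians ran from -0.025 for liver endothelial markers to 0.24 for red blood cell markers, with 0.11 for bile duct markers. The 4 red blood cell genes were higher in 4 of 4 above the gap (median 0.33) and in 3 of 4 below it (0.22), and 1 had an unadjusted p under 0.05 given EIF1AY. Their mean level per liver ran from 6.02 to 8.22 in the fattest and from 5.73 to 8.21 in the leanest. Kupffer cell markers had a median of -0.15 above the gap and 0.020 below it, and stellate cell markers 0.026 and -0.17. Given EIF1AY, the red blood cell median was larger in size than that of each of the 50 pathway lists, but it rests on 4 genes. Its plain median was 0.064, and in the middle livers 3 of the 4 slopes were negative, with a median of -0.030 per cm2.

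The 17 hepatocyte markers had a mean level per liver of 13.06 to 13.38 in the fattest and 13.05 to 13.36 in the leanest, so the defining genes of the labelled tissue were high in every liver of both groups. RGS5, a marker of pericytes and stellate cells, differed by 0.44 (SE 0.13, adjusted p = 0.231) and by 0.22 (SE 0.14) given EIF1AY, in the stellate list of 12. In whole liver, a shift in the number of cells of a type and a shift of RNA within them cannot be told apart, and the part of either in the differences above was not tested.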

How the data were processed

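Liver RNA of each pig was hybridised to an Affymetrix porcine array. The authors deposited 1 log2 value per probe set and array. The scale was read from the values. The submitters' processing notes name GCOS 1.1.1, the scanner software; no summary or normalization method is given in the sources used here. Values at the minimum, 4.09, made up 2.75% of all values, so differences near it are understated. The highest correlation between arrays was 0.989. Precision is limited by how many arrays there are.

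Of 24123 probe sets, 124 controls were left out. Symbols came from the array's annotation, matched by Entrez ID to the pig gene table of Sscrofa11.1: 10069 probe sets had 1 symbol, 198 several and 13732 none. A gene was read from its probe set of smallest p.

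Differences were fitted with limma 3.58.1 (lmFit, eBayes with trend) in R 4.3.3 over all 150 livers in 3 groups, plain and with the EIF1AY level as a covariate, and slopes over the 88 middle livers. Tests were two-sided, with Benjamini-Hochberg adjustment over 23999 probe sets and calls at an adjusted p under 0.05. Traits and array measures had permutation tests in Python 3.11.15 (scipy 1.17.1). The fits were tested on simulated data with known differences.

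Named were, per direction, called genes filled to 10 by the next smallest p, and per list its called members and its 2 of smallest p, and the 5 genes of smallest p per direction given EIF1AY. Other genes were chosen after their values were seen: GNMT, MAT1A, CTH, ASS1, CPS1, SEC23B, BET1, SRSF6, SLC25A33, ACSL5 and FABP1. The groups, gene lists and rules were chosen with earlier results of these data known. Alternatives covered covariates, scaling, filters, arrays left out and other limits of fat area.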

Additional observations from a re-analysis of the deposited data

How the results depend on the processing

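No paired analysis was possible because the labels carry no replicate number and each pig has 1 array. Against 20 calls between fattest and leanest, the count was 17 to 29 in 11 of 18 other settings. All of the 20 passed in 6 of the 18, and with the 20 highest against the 20 lowest only 6 of them were among the 22 calls. The count was 33 (23 higher and 10 lower) with only the 62 livers in the fit and with the 45 highest against the 45 lowest, 40 among probe sets with an SD above 0.25 (27 higher and 13 lower), 68 with array weights (47 and 21), and 65 higher and 39 lower with 5 principal components. Without the arrays that stood apart 16 were higher and 13 lower, and with the 20 highest against the 20 lowest 18 and 4. Within each side of the EIF1AY gap 0 passed (limma, with 1432 above and 1087 below at an unadjusted p under 0.05). There are 4 fattest livers below the gap and 7 leanest above it.

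Given EIF1AY, the call numbered 0 with only the 62 livers, with drip loss, array median or 3 prime minus 5 prime differences as covariates, with the block of 100 title numbers, with 5 principal components, with the 45 highest against the 45 lowest and with strict limits. It became 3 with array weights (2 higher and 1 lower) and 7 with the 20 highest against the 20 lowest. The middle slopes gave 0 calls in all 4 other settings (limma, 730 to 859 at an unadjusted p under 0.05). The cause of these moves was not tested.

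For the 70 genes named, 12 of 1327 values under alternatives changed sign. Below the gap these were EIF1AY (-0.064), CA3 (-0.014), DIO1 (0.082), SLC25A30 (0.11), ST6GAL1 (0.029), CPS1 (-0.035) and FABP1 (-0.073), and above it KDM6A (0.10), ASNS (0.088) and SRM (0.00077). CPS1 was -0.00010 given EIF1AY, and INSR was 0.063 in its brightest probe set. Of 1240 list medians under alternatives, 1237 moved by less than the SD between livers of the list's mean level. A small median can move by less than this and still change sign, so the count does not show stable directions. The plain median changed sign in 12 of 18 other settings for selenoproteins, in 11 for zinc and copper handling and in 7 for the citric acid cycle. It did so in 0 for protein translocation and vesicle transport and in 0 for the hexosamine pathway and N-glycosylation. The 8 traits and array measures kept direction and side of the threshold without the arrays that stood apart. Probe sets near the lowest value of the table limit what can be seen.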
